A study of Drosophila melanogaster with 28 samples.

Results

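Chromatin at 10 genes of spermatid differentiation was examined in testis tumours of Drosophila melanogaster. The genes were Mst87F, dj, fzo, Mst77F, Mst98Ca, Mst98Cb, Mst84Da, Mst84Db, Mst84Dc and Mst84Dd. They were chosen by name, as genes known to be expressed only after meiotic entry, and they are 10 of the 13968 protein-coding genes measured on 7 chromosomes. The question was whether genes that are not yet in use carry H3K27me3 in chromatin that resembles that of stem cells.

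The tumours come from overexpression of Unpaired (Upd), the ligand of the JAK-STAT pathway. In the assay, an antibody to GFP guides micrococcal nuclease (MNase) to the GFP-tagged histone H3 of a single cell type. The released chromatin was split into an input and an immunoprecipitation (IP) for 1 histone mark. Each tumour type had 2 preparations for H3K4me3, 3 for H3K27me3 and 2 for H3K9me3, which gave 28 libraries in 12 groups.

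Germline tumours were y[1] w[1118] P{hs70FLP} flies carrying GAL4::VP16-nanos.UTR with UAS-Upd, and their chromatin is labelled GSC-like (germline stem cell). Cyst tumours were w[1118] flies carrying traffic Jam-GAL4 with UAS-Upd, and theirs is labelled CySC-like (cyst stem cell). Both types carried 1 copy of UAS-FRT-H3-GFP-FRT-H3-mKO, so the nanos or the traffic Jam driver decides both which cells make Upd and which carry the tag. All crosses were kept at 25C, and each preparation pooled the cells of many testes. In such pools a smaller share of cells with a mark and less mark per cell cannot be told apart. The labels do not say that preparations came from separate crosses, so the p-values measure the spread between preparations, which may be technical.

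Spermatid genes are switched on in primary spermatocytes by testis-specific transcription machinery, and many of their transcripts are stored and translated only after meiosis. H3K4me3 marks the starts of active genes, H3K27me3 is the Polycomb mark of repressed developmental genes, and H3K9me3 is the mark of heterochromatin. Polycomb repression in early germ cells followed by its relief in spermatocytes is a model proposed for such genes. The files hold no RNA, so the silence of these genes in the tumours was not measured.

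By role the genes fall into 3 kinds. Of the sperm tail family with repeated cysteine, glycine and proline motifs, 4 members are clustered on chromosome arm 3R in Release 6 of the genome (dm6). Mst84Dd lies at chr3R:7363307-7363773, Mst84Dc at chr3R:7364254-7364673, Mst84Db at chr3R:7365160-7365627, all on the minus strand, and Mst84Da at chr3R:7365850-7366262 on the plus strand. Mst84Da starts 223 bp from Mst84Db, so their promoter windows share 778 bp, and it overlaps an exon of MstProx. The tail genes Mst98Ca (chr3R:28291338-28292656) and Mst98Cb (chr3R:28292798-28293863) stand in tandem on the plus strand. Mst87F (chr3R:13827151-13828008, minus strand) completes the family and overlaps an exon of the antisense lncRNA:CR43300, whose start is 40 bp away. Since the assay reads DNA from both strands, values at such overlaps belong to both genes.

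Sperm chromatin is represented by Mst77F (chr3L:20816901-20818027, minus strand), a linker-histone-like protein that compacts the sperm nucleus. It lies in an intron of Pka-R1, 938 bp from a Pka-R1 start, and 44 stretches of 50 bases in its body are also found on the Y chromosome, which carries the related Mst77Y copies. Mitochondria and the flagellum are served by fzo and dj. The gene fzo (chr3R:23201644-23204034, minus strand) encodes the GTPase that fuses mitochondria in early spermatids, and lies in an intron of cnc. The gene dj (chr3R:7059315-7060524, plus strand) encodes a protein of condensing sperm nuclei and of the flagellar mitochondria. Of all the bodies, those of Mst98Ca and Mst98Cb had the smallest share of 50-base stretches found once in the genome, 85.8% and 82.3%, so reads there may be assigned less surely.

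Short sequences near the start sites show what the family shares. Translational control of the tail genes rests on an element near the transcript start, spelled here as ACATC, any base, then AAATTT on the transcript strand. Within the first 100 bases after the annotated start it occurred in 6 of 13968 genes (0.0430%). Among the genes studied it lay in Mst84Dd, at bases 37 to 48, and in Mst87F at bases 57 to 68 after the downstream of its annotated starts. Only exact matches were counted, and the runs of Mst84Da, Mst84Dc and Mst98Cb printed below differ from the spelling at a single base. A gene without an exact match is therefore not shown to lack the element. A shorter motif inside it, CNAAATT, occurred in 7 of the 10 genes and in 8.71% of all genes. The 7 were dj, Mst98Ca, Mst98Cb, Mst84Da, Mst84Db, Mst84Dc and Mst84Dd. The match of Mst84Db, at bases 91 to 97, is not printed, and Mst87F is shown for its downstream start, which that count did not use. Capitals mark the element in the first 2 lines and the shorter motif in the rest, and each run is read 5′ to 3′ on the gene's strand from Release 6.
Mst87F, chr3R:13827610-13827639 (minus): ggcctgaacACATCAAAATTTgtcgtctag
Mst84Dd, chr3R:7363717-7363746 (minus): aacccaagaACATCAAAATTTgagctcttt
dj, chr3R:7059339-7059368 (plus): tggttttttCAAAATTctttgtaaaacttt
Mst98Ca, chr3R:28291365-28291394 (plus): gaataacttCCAAATTgaacagtaaaaatt
Mst98Cb, chr3R:28292820-28292849 (plus): gatacacttCTAAATTtctctgatcaaatt
Mst84Da, chr3R:7365867-7365896 (plus): agttaacacCTAAATTttcggttcctttcg
Mst84Dc, chr3R:7364643-7364672 (minus): tgctcgcatCAAAATTttgttgttttgtcc

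Motifs of Polycomb response elements were counted on both strands of the 250 bp upstream of each start. GAGAG, bound by GAGA factor, occurred in 0 of the 10 genes and in 25.7% of all genes. GCCAT, the core bound by Pleiohomeotic, occurred in Mst87F and Mst77F, 2 of the 10, and in 35.7% of all genes. TATAAA occurred in Mst84Dc and Mst84Dd, and in 43.0% of all genes. These counts describe letters only.

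The libraries held between 942943 and 18199704 fragments on the 7 chromosomes. Coverage was deposited as a signal scaled so that the autosomal median is about 1, so a global gain or loss of a mark cannot be seen. Promoters were windows of 500 bp on each side of the annotated upstream start, and bodies ran from start to end. A gene was called above or below input at a limma adjusted p under 0.05 and a fold over 1.5. RpL32, a ribosomal protein gene and active reference, had H3K4me3 above input at its promoter in germline (log2 1.04, limma adjusted p = 0.0073) and in cyst (1.07, limma adjusted p = 0.0039). RpS3A, on the fourth chromosome, was not called (-0.37 and 0.39). Among defining markers, promoters called above input for H3K4me3 numbered 0 of 5 germline and 1 of 5 cyst markers in germline tumours, and the same counts in cyst tumours. Hub markers gave 0 of 3 in germline and 2 of 3 in cyst tumours, and spermatocyte markers 1 of 9 and 0 of 9. Of all promoters tested, 20.8% were called in germline and 27.7% in cyst, and lists of 3 to 9 genes are too short to set against these shares. No marker promoter differed between the tumour types by limma, but neither did any of the 13686 promoters tested. This count therefore does not show that the markers are alike in the tumour types.

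H3K4me3, the mark of active starts, was not called at the promoter of any of the 10 genes. In germline tumours 0 of 10 promoters were called above input, against 20.8% of the 13686 promoters tested, and in cyst tumours 0 of 10, against 27.7%. None was called below input either, against 4.5% and 3.59%. Estimates ran in germline from -0.46 for dj to 0.40 for Mst98Cb, with a median of -0.17 beside 0.21 for all genes, and in cyst from -0.53 for Mst84Dd to 0.21 for Mst98Cb, with a median of -0.02 beside 0.26. Only 1 of 10 in germline and 0 of 10 in cyst lay above the median of all genes. Promoter H3K4me3 also rose with GC content, with Spearman coefficients of 0.62 and 0.51 in germline and 0.37 and 0.44 in cyst. After subtraction of the median of genes of similar GC content, values ran in germline from -0.84 for Mst84Db to -0.02 for Mst87F. In cyst they ran from -0.75 for Mst84Dd to 0.07 ± 0.47 (SD, n = 2) for dj, and fzo was at 0.03 ± 0.17 (SD, n = 2). At an unadjusted p under 0.05, 1 promoter differed in each tumour type, both lower than input. Of all 13686 promoters, 5387 in germline and 5963 in cyst differed from input in either direction. By edgeR and DESeq2, 0 of the 10 were called.

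The upper end of the 95% interval stayed at or below 0.85 in germline and 0.67 in cyst for all 10 promoters. RpL32, at 1.04 and 1.07, lies above these limits, but the median of 82 ribosomal protein promoters was 0.33 in germline and 0.60 in cyst, with 31.7% and 50% called, and lies below them. The intervals therefore do not place each of the 10 promoters below typical active ones. Among the tail genes, Mst84Dd had log2 IP/input of -0.18 and -0.05 in the germline preparations and of -0.69 and -0.49 in the cyst preparations. The cyst values rest on 25 and 31 IP fragments and on 38 and 36 input fragments. Its germline preparations were the higher ones, and the tumour types did not overlap. Mst98Cb stood at 0.59 and 0.37 in germline and at 0.15 and 0.30 in cyst, above input in all 4 preparations. After the subtraction by GC content it was at -0.20 ± 0.09 (SD, n = 2) and -0.34 ± 0.20 (SD, n = 2). The fusion gene fzo had -0.30 and -0.03 in germline and 0.15 and 0.17 in cyst, on opposite sides of 0.

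For dj, both germline preparations were below input, at -0.52 and -0.38, and the cyst preparations stood at -0.22 and 0.13. Its neighbour and relative djl, whose start is 1452 bp away, was called below input in both tumour types, at log2 -0.68 (limma adjusted p = 0.011) and -0.60 (limma adjusted p = 0.018). The sperm chromatin gene Mst77F had -0.33 and -0.22 in germline and 0.02 and -0.45 in cyst. Its host gene Pka-R1 reached 1.02 ± 0.12 (SD, n = 2) in germline and 0.75 ± 0.63 (SD, n = 2) in cyst at its promoter window. That window was centred on the annotated upstream start of Pka-R1, which need not be the start 938 bp from Mst77F. Mst87F had -0.11 and 0.11 in germline and -0.23 and -0.28 in cyst. Centred on its downstream start, 322 bp away, the mean was 0.33 ± 0.02 (SD, n = 2) in germline and -0.05 ± 0.49 (SD, n = 2) in cyst.

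Scaling by TMM factors moved the median of all promoters from 0.21 to 0.00 in germline and from 0.26 to -0.05 in cyst. It turned the split of 2841 above and 616 below in germline into 1425 and 1398, and that of 3786 and 492 in cyst into 1671 and 1785. Under it, dj in germline and Mst84Dc and Mst84Dd in cyst were called below input, and still no promoter was called above. With a window of 250 bp on each side, dj, Mst84Da and Mst84Db were below input in germline, as were 474 of all 13575 promoters.

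**Figure D1:**
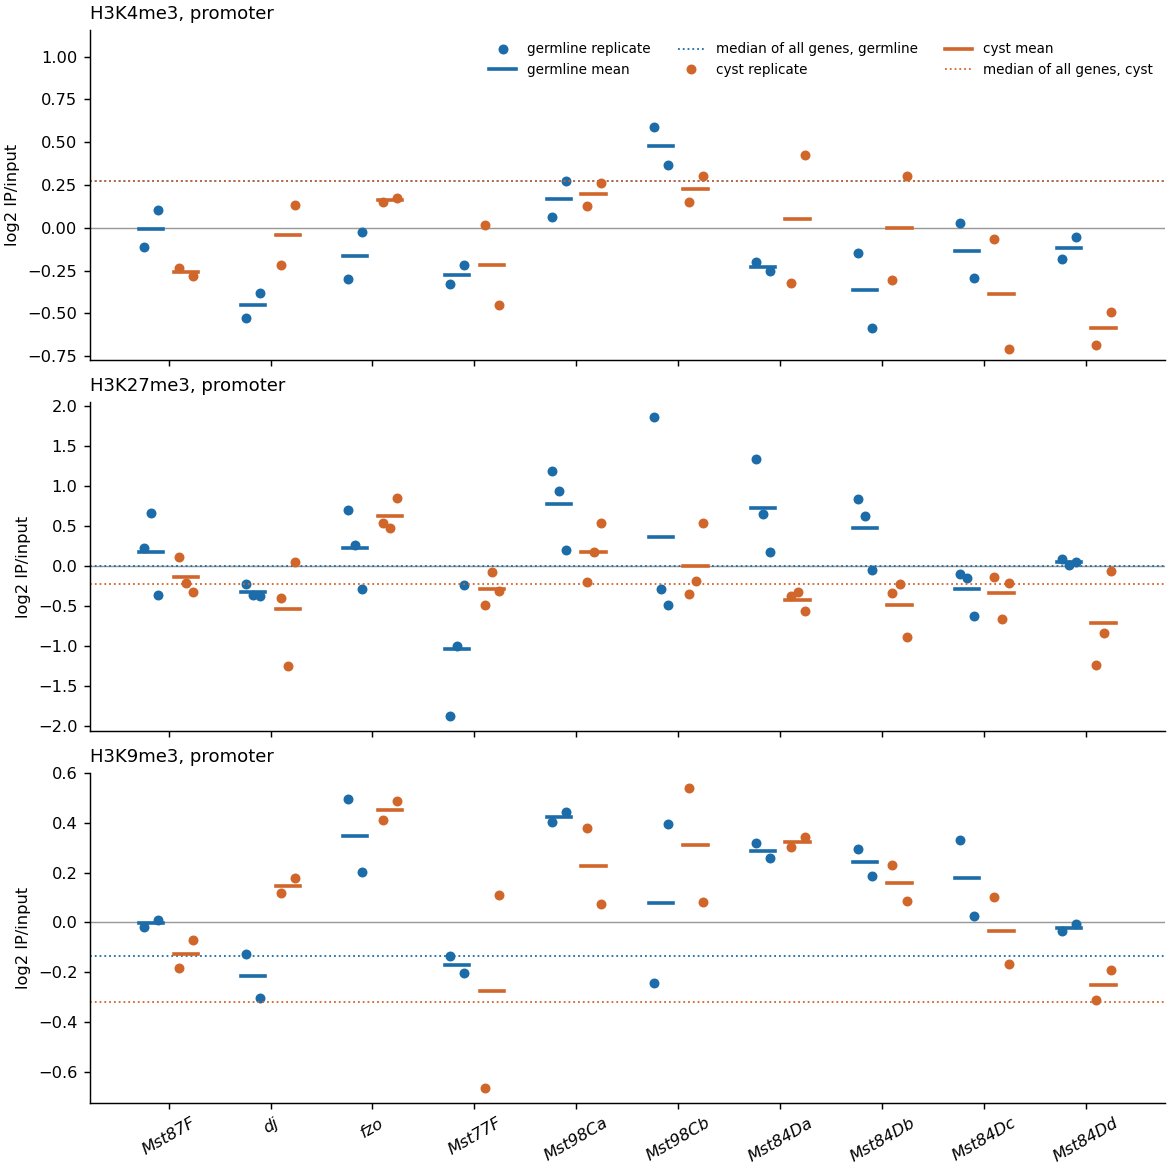
Log2 IP/input (y axis) at the promoters of the 10 genes for H3K4me3, H3K27me3 and H3K9me3 (from top), with points for preparations, bars for their means and dotted lines for the median of all genes. For H3K4me3, Mst98Cb in germline is the highest mean at 0.48, and for H3K27me3 the germline points of 1 gene spread widely, as for Mst98Cb from -0.48 to 1.86.

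Over gene bodies, the genes called above input for H3K4me3 were tail genes, which make up most of the 10. The body of fzo in cyst missed only the fold threshold. In germline 3 of 10 bodies were called, against 20.4% of 13658, and in cyst 2 of 10, against 25.3%, so the shares were near those of all genes. Mst98Ca was called in both (germline log2 1.00, limma adjusted p = 0.0044, and cyst 0.82, limma adjusted p = 0.0044). Mst98Cb (0.63, limma adjusted p = 0.024) and Mst84Dc (0.83, limma adjusted p = 0.025) were called in germline, and Mst84Db in cyst (0.61, limma adjusted p = 0.027). Mst84Dc was not called with the replicate block, which pairs input and IP of a preparation, nor with TMM scaling or DESeq2. TMM scaling and DESeq2 also lost Mst98Cb, and TMM scaling, edgeR and DESeq2 lost Mst84Db. Mst98Ca stayed called under all of these in germline, and in cyst under all but TMM scaling. No body was called below input, against 1.35% and 0.681% of all genes. The median over the 10 genes was 0.08 in germline beside 0.26 for all genes, and 0.11 in cyst beside 0.29.

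Mst98Ca had log2 IP/input of 1.32 and 0.97 in germline, from 46 and 38 IP fragments against 49 and 93 input fragments. Its cyst values were 0.84 and 1.07, from 43 and 45 IP fragments against 22 and 17. All 4 preparations were above input, and the tumour types overlapped. Mst98Cb had 0.67 and 0.87 in germline but 0.21 and 0.24 in cyst, where it was not called. Mst84Dc had 1.48 and 0.43 in germline, from 20 and 13 IP fragments, and -0.10 and -0.45 in cyst, so its germline preparations differed from each other by more than those of Mst98Ca. Mst84Db had 0.38 and 0.90 in cyst, from 20 and 24 IP fragments, and 0.35 and -0.19 in germline.

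The remaining bodies were not called. Estimates were -0.38 in germline and -0.28 in cyst for Mst84Dd, 0.35 and 0.07 for Mst84Da, 0.03 and -0.07 for Mst87F, 0.02 and -0.22 for dj, and 0.07 and 0.15 for Mst77F. The body of fzo in cyst, at 0.44, had an adjusted p of 0.048 by limma but a fold under 1.5. Without germline replicate 1, no gene of the whole set was called in germline, these included. Leaving out either cyst preparation left Mst98Ca as the single call in each tumour type.

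**Figure D2:**
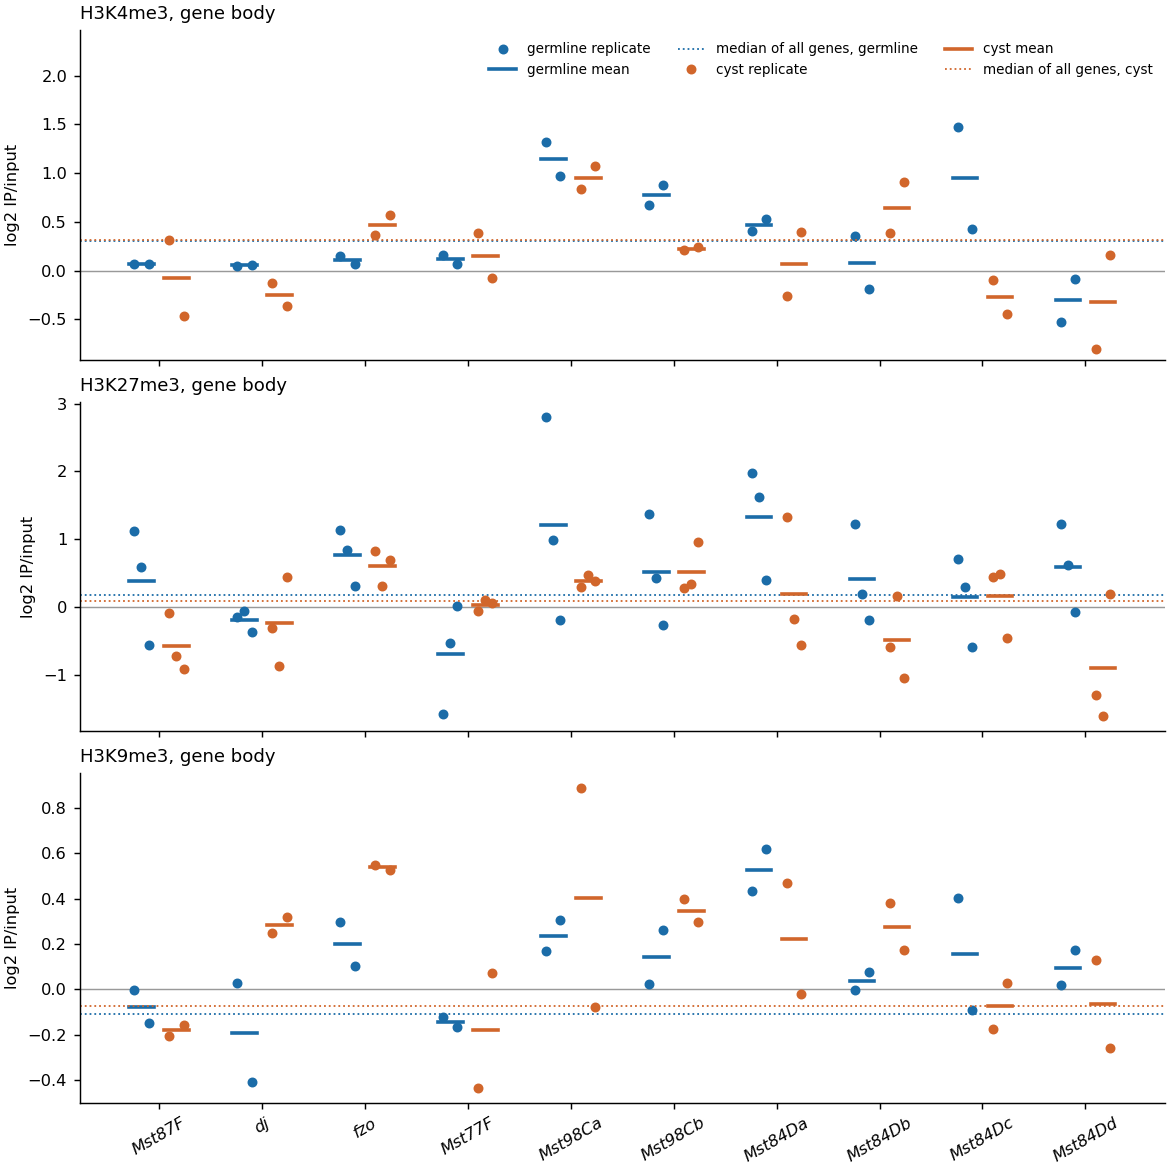
Log2 IP/input (y axis) over the bodies of the 10 genes for the 3 marks, with points for preparations, bars for means and dotted lines for the median of all genes. For H3K4me3, Mst98Ca is highest in both tumour types, at means of 1.14 in germline and 0.95 in cyst.

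Base composition moved with these values. Across the bodies of all genes, H3K4me3 log2 IP/input rose with GC content in every preparation, with Spearman coefficients of 0.80 and 0.75 in germline and of 0.59 and 0.69 in cyst (13658 genes, which share libraries and depth). The body of Mst98Ca has 56.1% GC, above that of 98.4% of all genes, and Mst98Cb has 53.2%, above that of 94.0%. The other 8 bodies have between 36.9% and 48.7%, and the median gene has 45.7%. In the GC group of Mst98Ca, which holds 274 genes, the median was 1.18 in germline and 1.08 in cyst, beside its own means of 1.14 and 0.95. After subtraction of the running median by GC content, Mst98Ca was at 0.00 ± 0.18 (SD, n = 2) in germline and at -0.07 ± 0.13 (SD, n = 2) in cyst, and Mst98Cb at -0.14 ± 0.21 (SD, n = 2) and -0.65 ± 0.06 (SD, n = 2). Neither gene exceeded the median of genes of its GC content by more than the spread between preparations. Mst84Dc, with 42.1% GC, kept 0.92 ± 0.76 (SD, n = 2) in germline after the same subtraction, from 1.46 and 0.39 in its preparations. Mst84Db kept 0.15 ± 0.44 (SD, n = 2) in cyst. Among the bodies not called, dj was at 0.40 ± 0.09 (SD, n = 2) in germline and at -0.05 ± 0.05 (SD, n = 2) in cyst. Mst84Dd was at -0.61 ± 0.33 (SD, n = 2) in germline and at -0.69 ± 0.76 (SD, n = 2) in cyst.

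**Figure D3:**
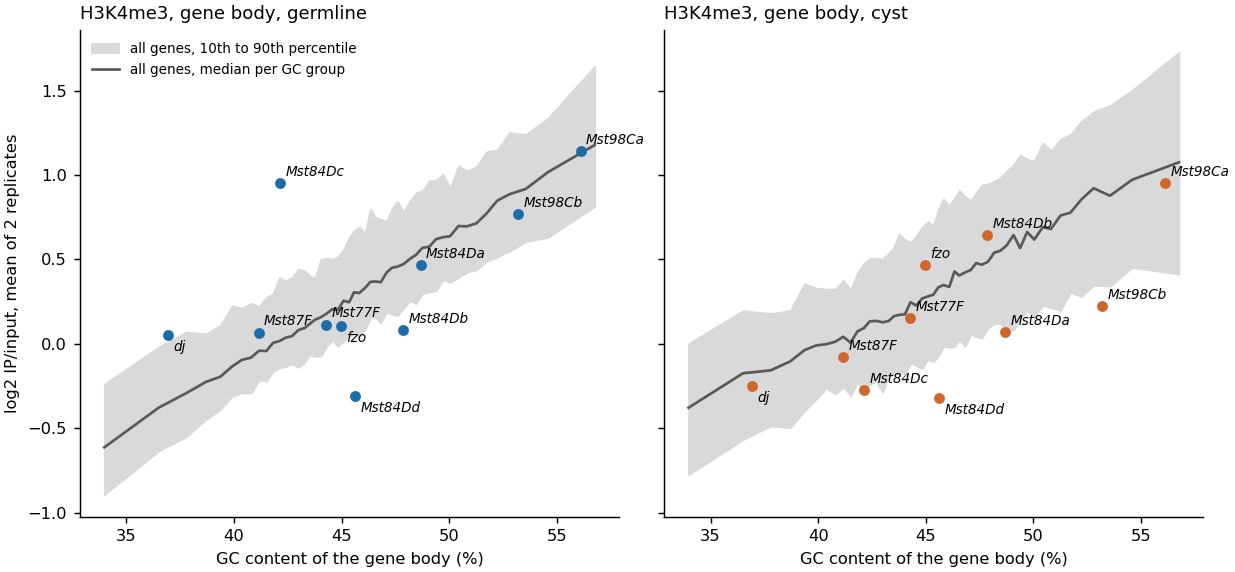
H3K4me3 log2 IP/input over gene bodies (y axis, mean of 2 preparations) against GC content in percent (x axis), with the 10 genes as points, the median of all genes in 50 GC groups as a line and their 10th to 90th percentiles as a band. Mst98Ca lies on the line in both panels. In germline, Mst84Dc at 0.95 and dj at 0.05 lie above the band, and Mst84Db and Mst84Dd lie below it. In cyst, Mst84Dd and Mst98Cb lie below the band, and Mst84Da and Mst84Dc lie at its lower edge.

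Input coverage of the same bodies was low. The input signal of Mst98Ca was 0.575 ± 0.192 (SD, n = 7) in germline and 0.452 ± 0.088 (SD, n = 7) in cyst, and that of Mst98Cb 0.535 ± 0.17 (SD, n = 7) and 0.461 ± 0.112 (SD, n = 7). Median autosomal bodies had 1.03 ± 0.06 (SD, n = 7) and 1.09 ± 0.04 (SD, n = 7). Across the pair in 200-bp steps, H3K4me3 was highest 600 to 800 bp inside Mst98Ca, at 2.82 ± 0.24 (SD, n = 2) in germline and 2.20 ± 0.03 (SD, n = 2) in cyst. That step holds 63.5% GC, and its cyst inputs had 0 and 1 fragments beside 4 and 10 in the IP. At the step after the Mst98Ca start the mean was 0.73 ± 0.27 (SD, n = 2) in germline and -0.30 ± 0.66 (SD, n = 2) in cyst, so the highest values lay in the body and not at the start. The part of GC content and low input in these calls was not tested beyond these values.

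**Figure D4:**
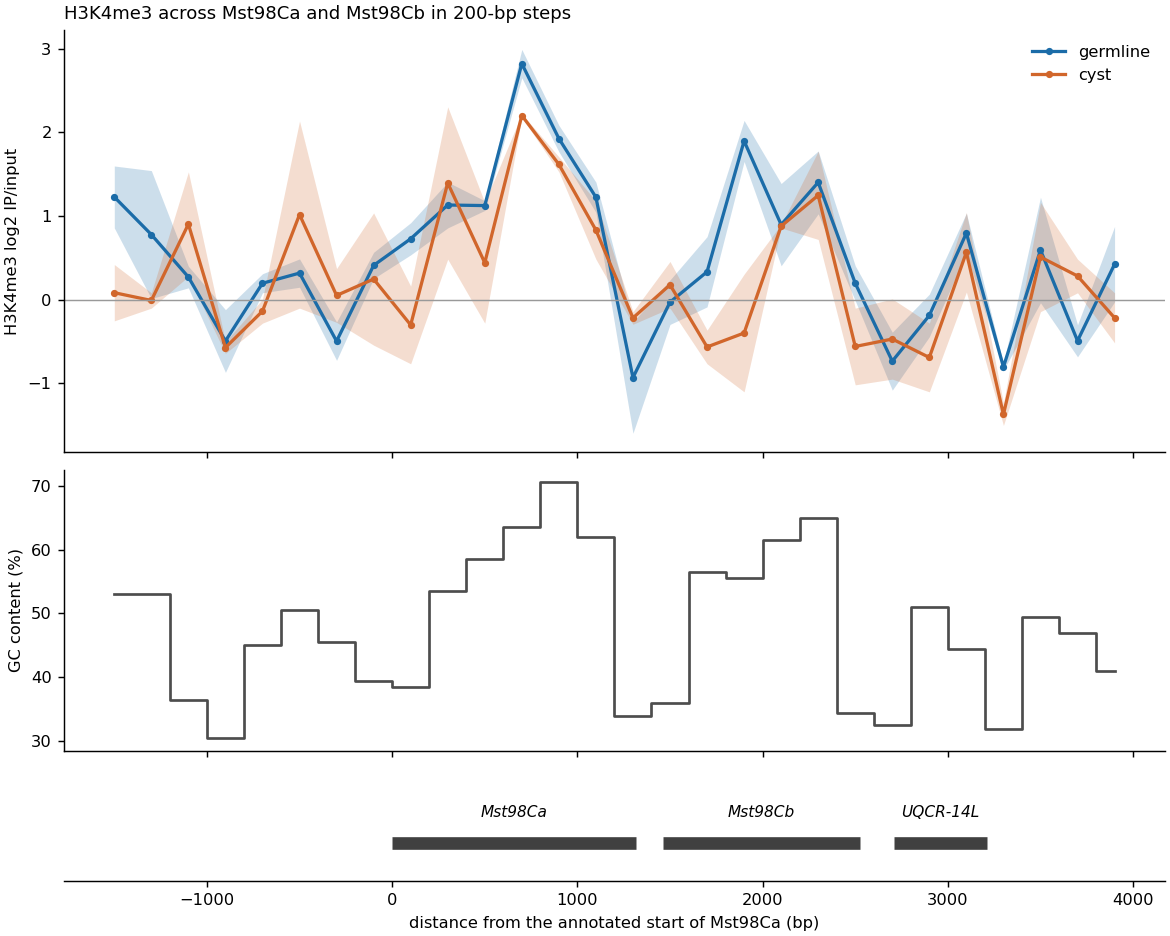
H3K4me3 log2 IP/input (top, y axis) and GC content in percent (middle) in 200-bp steps along Mst98Ca, Mst98Cb and UQCR-14L (bars at the bottom), against distance in bp from the annotated start of Mst98Ca. Lines are means, and bands span the 2 preparations. The highest step, at 2.82 in germline and 2.20 in cyst, holds 63.5% GC, and a second rise lies within Mst98Cb.

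H3K27me3, the mark the question turns on, was not above input at any of the 10 genes under the threshold used. In germline tumours 0 of 10 promoters and 0 of 10 bodies were called, against 0 of 13665 promoters and 0 of 13622 bodies of all genes. With the replicate block, 12 promoters of all genes were above and 229 below input in germline, and 32 and 489 in cyst, none of them among the 10. In cyst tumours again 0 of 10 were called in either window, against 0.0512% of promoters and 0.044% of bodies above input. No promoter was called below input, against 0.849% in cyst. At an unadjusted p under 0.05, 3 promoters and 3 bodies differed from input in germline and 2 and 2 in cyst, in both directions. Of all 13665 promoters, 2452 in germline and 2912 in cyst did so, and of all 13622 bodies 2648 and 2188. By edgeR and DESeq2, 0 of the 10 were called. Of 20 genes known as Polycomb targets 0 were called in either window, so the absence of a call does not show the absence of the mark.

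At promoters the median of the Polycomb targets lay above that of the spermatid genes in both tumour types, a difference between lists that was not tested. In germline the median promoter estimate was 0.52 over 20 Polycomb targets, 0.14 over the 10 spermatid genes and -0.07 over all genes. Cyst medians were 0.17, -0.31 and -0.21. By preparation, 19, 15 and 19 of the 20 Polycomb targets were above 0 in germline, with medians of 0.97, 0.40 and 0.62. Of the 10 spermatid promoters 7, 6 and 3 were above 0, with medians of 0.46, 0.14 and -0.26. In the cyst preparations 2, 2 and 4 of the 10 were above 0, beside 11, 13 and 14 of the 20 Polycomb targets, whose medians were 0.16, 0.17 and 0.19. The segmentation gene en reached 1.02 at its promoter in germline (95% interval 0.36 to 1.68, limma adjusted p = 0.23), and the Hox gene Ubx reached 0.82 in cyst (0.20 to 1.44, limma adjusted p = 0.13). Abd-B stood at 0.35 and 0.67, and prd at 0.45 and 0.09, in germline and cyst.

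What the promoter intervals allow differs among the genes. Mst77F had values of -1.87, -0.996 and -0.24 in germline, from 2, 21 and 112 IP fragments against 76, 53 and 137 in the inputs. All 3 preparations were below input, and the estimate was -1.09 with an upper limit of -0.40 (limma adjusted p = 0.23). Without germline replicate 3 this promoter was called below input, as were 304 of all 13609 promoters. Promoter H3K27me3 rose with GC content across all genes, with Spearman coefficients of 0.59, 0.46 and 0.52 in the germline preparations. After subtraction of the median by GC content, Mst77F was at -0.53 ± 0.66 (SD, n = 3), dj at 0.12 ± 0.28 (SD, n = 3) and Mst84Dc at 0.05 ± 0.58 (SD, n = 3) in germline, so the low values of all 3 were within their spread of 0. Without that subtraction, the germline upper limits for dj, Mst84Dc and Mst84Dd were 0.22, 0.15 and 0.55, under the log2 of 1.5-fold, which is 0.58. Higher values remained possible for Mst98Ca, at 0.70 with limits of 0.09 and 1.30, and for Mst84Da, at 0.66 with limits of 0.08 and 1.23. With the subtraction these 2 were at 0.57 ± 0.60 (SD, n = 3) and 0.58 ± 0.57 (SD, n = 3). In cyst the highest promoter was that of fzo, at 0.58 with limits of 0.09 and 1.08 (limma adjusted p = 0.17). With the subtraction, fzo in cyst was at 1.00 ± 0.24 (SD, n = 3), and its mean before subtraction lay above 99.1% of its GC group. Of the others in cyst, Mst87F was highest at 0.36 ± 0.44 (SD, n = 3) and Mst84Dd lowest at -0.36 ± 0.49 (SD, n = 3).

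**Figure D5:**
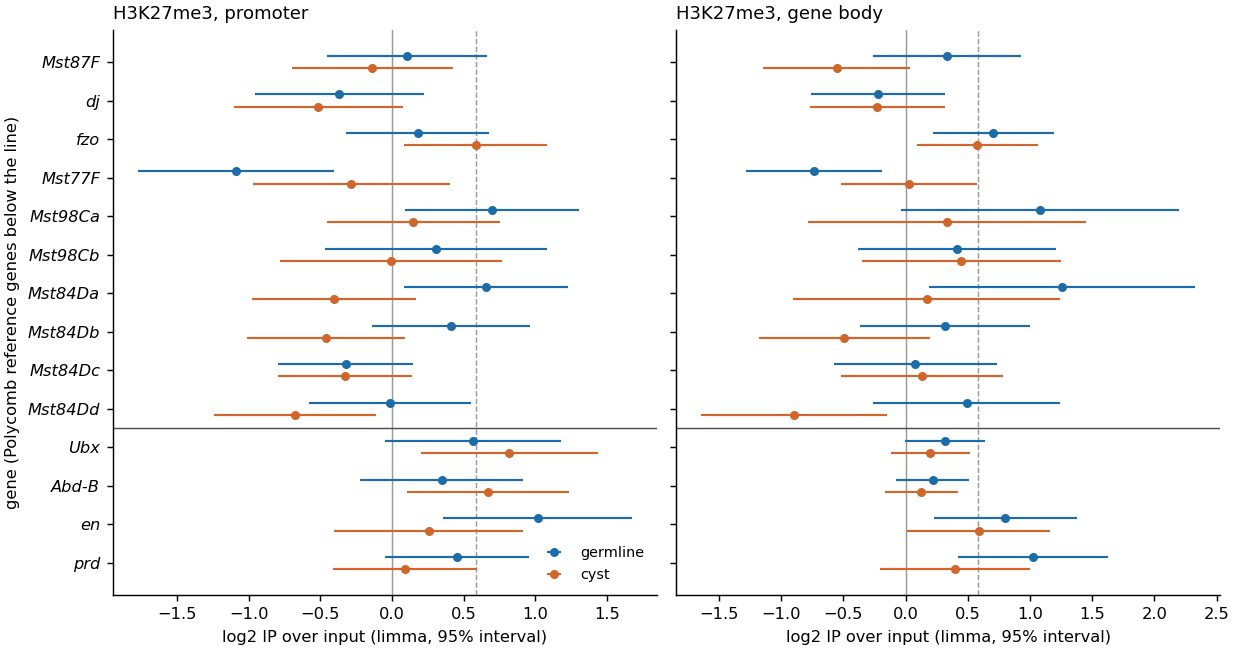
Estimates of log2 IP over input for H3K27me3 (x axis) with 95% intervals at promoters and bodies of the 10 genes and of 4 Polycomb reference genes. The dashed line is the log2 of 1.5-fold, 0.58. Mst77F in germline lies below 0 in both panels, and of the 10 genes fzo is the one whose body interval lies above 0 in both tumour types.

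Over bodies, the germline preparations disagreed. The median over the 10 genes was 1.18, 0.51 and -0.19 in germline replicates 1, 2 and 3, beside 0.58, 0.15 and 0.06 for Polycomb targets and 0.44, -0.03 and 0.13 for all genes. With the fragments of all 10 bodies added up, log2 IP/input was 0.98 (95% counting interval 0.70 to 1.27) in replicate 1, from 127 IP fragments. It was 0.47 (0.22 to 0.72) in replicate 2, from 277, and -0.08 (-0.21 to 0.05) in replicate 3, from 905. Replicate 1 had the shallowest IP of the series, with 942943 fragments, and replicate 3 had 12640531 and was sequenced on another flow cell. The part of depth and flow cell in this spread was not tested. Cyst preparations gave 0.26, 0.00 and 0.22 for the same sum, so they lay closer together. The intervals cover counting error only.

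Several single bodies followed the same order. Mst98Ca had 2.81, 0.99 and -0.19 in germline, from 29, 20 and 71 IP fragments against 29, 12 and 84 in the inputs. Mst84Da had 1.98, 1.62 and 0.40, from 12, 19 and 46 IP fragments against 22, 7 and 36, and its estimate of 1.26 (0.18 to 2.33, limma adjusted p = 0.25) ranked above 99.8% of all genes. Replicate 1 was the highest and replicate 3 the lowest in both. Mst84Dd had 1.22, 0.62 and -0.07 in germline against -1.29, -1.61 and 0.19 in cyst, and the tumour types overlapped. Mst77F went the other way, with -1.57, -0.53 and 0.01 in germline and -0.06, 0.11 and 0.06 in cyst.

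The body of fzo was above input in all 6 preparations. It stood at 1.14, 0.84 and 0.31 in germline tumours, and at 0.82, 0.32 and 0.69 in cyst tumours, from between 39 and 318 IP fragments. The estimates of 0.71 (0.22 to 1.19) in germline and 0.57 (0.09 to 1.06) in cyst both had a limma adjusted p of 0.25. The body of cnc, in whose intron fzo lies, had -0.13 ± 0.11 (SD, n = 3) and -0.01 ± 0.05 (SD, n = 3). The promoter of cnc had 0.71 ± 0.22 (SD, n = 3) in germline, above input in all 3 preparations, and 0.30 ± 0.69 (SD, n = 3) in cyst. After the subtraction by GC content fzo was at 0.61 ± 0.38 (SD, n = 3) in germline and 0.56 ± 0.31 (SD, n = 3) in cyst, and Mst98Ca at 0.40 ± 0.98 (SD, n = 3) and -0.33 ± 0.09 (SD, n = 3). Mst84Da was then highest of the 10 in germline, at 1.00 ± 0.75 (SD, n = 3), with preparations from 0.15 to 1.59. Its cyst value was -0.02 ± 1.02 (SD, n = 3). Mst77F was lowest in germline, at -0.82 ± 0.94 (SD, n = 3), and stood at -0.004 ± 0.029 (SD, n = 3) in cyst. Without the subtraction, fzo at 0.57 was the highest of the 10 bodies in cyst, and Mst84Dd at -0.90 was the lowest.

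H3K9me3 was not called above input at any of the 10 genes. In germline 0 of 10 promoters and 0 of 10 bodies were above input, against 0.153% and 0.0657% of all genes, and in cyst 0 of 10 in each window, against 0.321% and 0.394%. None was below input, against 6.63% of promoters and 1.87% of bodies in germline and 26.6% and 4.16% in cyst. Promoter estimates ran from -0.20 for dj to 0.39 for Mst98Ca in germline and from -0.27 for Mst77F to 0.42 for fzo in cyst. Against the median of all promoters, 8 of 10 lay above it in germline and 10 of 10 in cyst. The medians were 0.11 beside -0.12 for all genes in germline, and 0.13 beside -0.30 in cyst. Those of the 20 Polycomb targets were higher, at 0.26 in germline and 0.23 in cyst. After subtraction by GC content, promoters ran in germline from -0.05 ± 0.25 (SD, n = 2) for dj to 0.54 ± 0.37 (SD, n = 2) for fzo. In cyst they ran from 0.14 ± 0.15 (SD, n = 2) for Mst84Dd to 0.89 ± 0.13 (SD, n = 2) for fzo. At an unadjusted p under 0.05, 2 promoters and 1 body differed from input in germline and 1 and 2 in cyst. Of all 13708 promoters, 3529 in germline and 6943 in cyst did so, and of all 13705 bodies 4564 and 4990. By edgeR and DESeq2, 0 of the 10 were called.

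The gene fzo came closest to a call. Its body had 0.30 and 0.10 in germline and 0.55 and 0.53 in cyst, from 162 and 370 IP fragments against 289 and 356 in the cyst inputs. The cyst estimate of 0.50 (limma adjusted p = 0.020) was below the fold threshold, as was the promoter estimate of 0.42 (limma adjusted p = 0.021). The tumour types did not overlap over the body. With TMM scaling, which moved the median of all promoters in cyst from -0.30 to 0.04, the promoters of fzo and Mst84Da were called above input in cyst. Of all 13708 promoters, 817 were then called above input in cyst, against 44 without that scaling. The Mst84Da body had 0.43 and 0.62 in germline, beside 0.47 and -0.02 in cyst, and the tumour types overlapped. The body of cnc around fzo had 0.07 ± 0.07 (SD, n = 2) in germline and 0.04 ± 0.09 (SD, n = 2) in cyst.

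The germline minus cyst difference of the IP effect was tested for each mark. It was called for 0 of 10 genes in every mark and window. All genes gave 0 calls too, except at H3K9me3 promoters, with 2.15% of them above cyst in germline tumours and 0.0073% below. Other tools called other numbers over all genes. For H3K4me3 bodies edgeR called 64 higher and 132 lower in germline and DESeq2 31 and 54, and for H3K9me3 bodies edgeR called 58 and 48 and DESeq2 5 and 0. At H3K9me3 promoters edgeR called 466 and 6, and DESeq2 called 0. Of the 10 genes, edgeR and DESeq2 called 0. At an unadjusted p under 0.05, H3K4me3 bodies gave 2 of the 10 genes, against 1644 of all 13658. H3K27me3 promoters gave 2, against 497 of 13665, and H3K27me3 bodies 2, against 424 of 13622. The other windows gave 0, against 1350 H3K4me3 promoters, 2524 H3K9me3 promoters and 1622 H3K9me3 bodies of all genes. For H3K4me3 bodies the 2 genes were Mst84Dc, 1.08 higher in germline (limma adjusted p = 0.35), and Mst84Db, with a difference of -0.62 (limma adjusted p = 0.40). For H3K27me3 promoters they were Mst84Da at 1.06 and Mst84Db at 0.87, which share most of their windows, and for bodies Mst87F at 0.89 and Mst84Dd at 1.39, all with a limma adjusted p of 0.97 or more. The flow cell of the H3K4me3 libraries differed between the tumour types, so the 2 cannot be told apart. Within a single flow cell, without germline replicate 3, H3K27me3 differences were also called for 0 of 10. In that setting 0 of all 13609 promoters and 0 of all 13500 bodies were called, so the count does not set the 10 genes apart. The part of the flow cell was not tested.

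Preparations of the tumour types did not overlap at 5 of 10 promoters for H3K4me3 against 39% of all genes, at 3 for H3K27me3 against 10.3%, and at 4 for H3K9me3 against 44.5%. Over bodies the counts were 6 against 46.6%, 0 against 12.5% and 5 against 46%. By direction, germline lay above cyst at 4 H3K4me3 bodies, against 19.8% of all genes, and below at 2, against 26.8%. For H3K27me3 germline lay above cyst at all 3 promoters, against 7.94%, and at 0 bodies, against 7.39%. After subtraction by GC content the tumour types overlapped at 2 of these 3 promoters, Mst84Db and Mst84Dd, and at Mst84Da the lowest germline value was -0.076 and the highest cyst value -0.082. The 3 genes for H3K27me3 were Mst84Da, Mst84Db and Mst84Dd, neighbours in a single cluster. Mst84Da had 1.33, 0.65 and 0.18 in germline against -0.38, -0.32 and -0.57 in cyst, from 17, 36 and 117 IP fragments in germline. Mst84Db had 0.83, 0.62 and -0.05 against -0.34, -0.23 and -0.88. Mst84Dd had 0.09, 0.01 and 0.05 against -1.23, -0.84 and -0.06. The germline preparations were the higher ones in all 3, while Mst84Dc between them had -0.10, -0.15 and -0.62 against -0.14, -0.67 and -0.21 and overlapped.

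The inputs hold the chromatin that MNase released, before any IP, and gave 7 libraries per tumour type. No gene of the 10 differed between them by limma, against 0.073% of promoters with more input in germline tumours and 4.9% with more in cyst tumours, and 0.0365% and 0.862% of bodies. At an unadjusted p under 0.05 the count was 0 for promoters, against 5808 of all 13701, and 1 for bodies, against 5361 of 13690. By edgeR, 0 of the 10 were called. Over bodies the differences ran from -0.24 for Mst77F to 0.25 for Mst98Ca, beside a median of -0.11 for all genes. Mst77F had a body input of 1.00 ± 0.23 (SD, n = 7) in germline and 1.19 ± 0.16 (SD, n = 7) in cyst, and the ranges overlapped. The body of Mst98Ca, from 0.284 to 0.826 in germline and from 0.307 to 0.588 in cyst, was called higher in germline once the H3K27me3 inputs were left out. Of all 13710 bodies, 24 were called higher in germline in that setting. Promoter inputs were lowest at Mst98Cb, with 0.735 ± 0.142 (SD, n = 7) and 0.619 ± 0.050 (SD, n = 7).

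Other genes of the same programme were read as lists. Of 26 further spermatid genes 25 were matched, and of the cup and comet genes, which are transcribed late in spermatids, 18 of 19. H3K4me3 promoters called above input numbered 2 of 25 spermatid and 1 of 18 cup and comet genes in germline, and 2 and 3 in cyst. Of all promoters tested, 20.8% in germline and 27.7% in cyst were called above input. Promoters below input numbered 3 and 1 in germline and 3 and 0 in cyst, against 4.5% and 3.59% of all promoters. Spermatid genes had a median of -0.12 in germline and -0.24 in cyst, cup and comet genes one of 0.08 and 0.07, and all genes one of 0.21 and 0.26. The comet and cup genes h-cup (1.03) in germline and p-cup (1.01) in cyst were the highest of those called, and bb8 (-0.94) in germline and S-Lap3, a leucyl aminopeptidase of sperm, (-0.71) in cyst the lowest.

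Over bodies, H3K4me3 was called above input at 5 of 25 spermatid and 4 of 18 cup and comet genes in germline, and at 1 and 2 in cyst. Of all bodies tested, 20.4% in germline and 25.3% in cyst were called above input, so the germline shares were near those of all genes. S-Lap5 (1.18) and hale (1.14) led in germline, and r-cup (1.00) and hale (0.90) in cyst. For H3K27me3, 0 of 25 and 0 of 18 were called in either tumour type or window. The promoter median of the spermatid genes was -0.06 in germline and -0.08 in cyst, and that of the cup and comet genes 0.22 and 0.12. For H3K9me3 the calls were all below input, at 1 of 25 and 1 of 18 promoters in cyst, gdl and m-cup, and at 1 of 25 bodies in cyst, again gdl (-0.70). Of all genes, 26.6% of promoters and 4.16% of bodies were called below input in cyst.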

How the data were processed

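Per the file headers, the authors deposited 1 signal (coverage) column for each library, over windows of 40 bp spaced 20 bp apart. Bowtie2 2.4.5 and the build dm6 are named in the submitters' processing notes, and how reads were filtered is not stated there. In each library all values were whole multiples of a single unit (tolerance 0.01), so fragments per 20-bp bin were recovered and summed per gene on Release 6 annotation. Whole-genome scaling is the authors'.

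Tests took genes averaging at least 10 fragments and were run with limma 3.58.1 (R 4.3.3, mean-variance trend) on log2(signal + 0.1), 1 fit per mark, with Benjamini-Hochberg adjustment over all genes; these log2 values understate changes of low signals. Log2 IP/input per preparation adds 1 fragment to each count. Inputs were fitted with a term for the mark series. GC values subtract medians over 50 GC groups in each preparation. Alternatives were edgeR 4.0.16 and DESeq2 1.42.0 on recovered fragments, TMM scaling, a pseudocount of 0.5, no filter, other windows, a replicate block and leaving out each preparation. The limma fits of H3K4me3 promoters and of H3K27me3 and H3K9me3 bodies were tested on simulated data, for the germline and the difference contrast; the other fits run the same code and were not simulated.

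The genes, lists, tests and alternatives were chosen with earlier results of these data known; the downstream Mst87F start was added after seeing the data. All 10 genes were tested in each comparison, but for some marks and windows only some of them are given by value above. Of the other lists, called genes were eligible to be named, up to 6 per comparison by size, and not all of these are given. A planned permutation test of the median over the genes was not run. Input and IP of a number share 1 chromatin preparation, per the labels' protocols. Their deviations from group means correlated at 0.0462 and 0.01 for H3K4me3, at -0.0899 to 0.335 for H3K27me3 and at -0.138 and 0.143 for H3K9me3 (germline and cyst).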

Additional observations from a re-analysis of the deposited data

Results flagged for a closer look

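Among 40 groups of 7 inputs (10 genes, promoter or body, germline or cyst), 3 held a library far from the others by a gap test. Chance marks about 1 in 20 groups. The promoter of Mst98Ca had an input signal of 0.597 in cyst H3K27me3 replicate 3, the lowest of its group. Over bodies, Mst77F had 1.49 in germline H3K27me3 replicate 1, the highest, and Mst84Da had 0.27 in cyst H3K27me3 replicate 1, the lowest, from 3 fragments. All 3 were H3K27me3 inputs.

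Several genes had every germline preparation on one side of 0 and every cyst preparation on the other. Differences of mean log2 IP/input, germline minus cyst, were -0.32 for H3K4me3 at the fzo promoter, 0.30 over the dj body and 1.23 over the Mst84Dc body. For H3K27me3 they were 1.14 at the Mst84Da promoter and 0.76 at the Mst84Dd promoter, and for H3K9me3 -0.36 at the dj promoter. None of these 6 was past the threshold of the interaction test by limma. Of all genes, 6.87% of promoters and 7.33% of bodies showed such opposite signs for H3K4me3, 1.90% of promoters for H3K27me3 and 7.62% for H3K9me3.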

How the results depend on the processing

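Counts of genes called for H3K27me3 above input, for germline minus cyst differences and for H3K9me3 in germline stayed at 0 of 10 under the alternatives run. H3K4me3 promoters below input rose from 0 to 1 in germline and 2 in cyst with TMM scaling, and to 3 in germline with 250-bp windows. H3K4me3 bodies above input in germline fell from 3 to 1 with TMM scaling and DESeq2 and to 0 with 2000 bp added on each side, and ranged from 0 to 2 without single preparations. In cyst they fell from 2 to 0 with TMM scaling, with a pseudocount of 0.5 and with 2000 bp added, to 1 with edgeR and DESeq2, and ranged from 1 to 2 without single preparations. H3K27me3 promoters below input ranged from 0 to 1 without single preparations. H3K9me3 promoters above input in cyst rose from 0 to 2 with TMM scaling, while those of all genes rose from 44 to 817. Bodies higher in germline input rose from 0 to 1 without the H3K27me3 inputs, while those of all genes rose from 5 to 24. With 2000 bp added, Mst84Dc in germline turned to -0.068 and Mst84Db in cyst to -0.44 for H3K4me3; such windows reach neighbouring genes by construction. Otherwise the causes were not tested. With the replicate block, which pairs input and IP, H3K4me3 bodies above input numbered 2 in germline and 2 in cyst, and no other count changed. Depth limits the H3K27me3 values of germline replicate 1, with 2 to 17 IP fragments per promoter.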
